A study of Mus musculus with 6 samples.

Results

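The 9 genes described here encode the 3 Afap actin adaptors (Afap1, Afap1l1 and Afap1l2), the Src family kinases Src, Yes1 and Fyn, the adaptor Shc1, and the PI3K subunits Pik3r1 and Pik3ca. They are 9 of the 22505 genes or unnamed transcripts measured above background in a comparison of RANK-/- with RANK+/+ mammary tumor cells. The members were chosen from the measured log2 ratios of the same comparison: Afap1l1 stood out there for a ratio that was nearly equal in all pairs, and the others were added as its family and the signaling proteins around it. Their values are therefore given as a description, without a test.

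Middle T, the polyomavirus oncoprotein that drives these tumors, has no enzyme activity of its own. It sits at the membrane, binds protein phosphatase 2A and the kinases Src, Yes and Fyn, and becomes phosphorylated on tyrosines that recruit Shc1 and the p85 regulatory subunit of PI3K (Pik3r1), which brings the p110 alpha catalytic subunit (Pik3ca) to the membrane. Afap1 crosslinks actin filaments and binds and activates Src. Afap1l2, also named XB130, is a substrate of Src family kinases that binds p85. Afap1l1 is a relative that has been linked to cortactin and to podosomes, the actin-rich contacts of invading cells. RANK, the receptor encoded by Tnfrsf11a, activates NF-kB and also signals through TRAF6 and Src to PI3K in osteoclasts.

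The cells were late carcinoma cells of the MMTV-PyMT model, in which a mammary tumor virus promoter drives middle T, and carried either RANK+/+ or RANK-/-. Both genotypes were C57BL/6 and were grown as orthotopic transplants (in the mammary gland) in syngeneic C57BL/6 hosts, so the RANK genotype concerned the transplanted cells and not the host. Live cells without the leukocyte protein CD45 were sorted from the disaggregated tumors, a gate that keeps host fibroblasts and vessel cells beside the tumor cells. RNAs of both genotypes were hybridized together on 2-color arrays as 3 pairs, each on 2 technical arrays (A and B), with the RANK-/- RNA in Cy5 in pair 1 and in Cy3 in pairs 2 and 3. The labels do not tie the RNAs to separate tumors, so the spread between pairs may be partly technical. In such bulk RNA, fewer cells of a type and less RNA per cell cannot be told apart.

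Each ratio below is log2 of the RANK-/- channel over the RANK+/+ channel, averaged over arrays A and B of a pair and given as mean ± SD over n = 3 pairs. The labels were checked on the deleted gene first. Every array (6 of 6) measured the Tnfrsf11a probe well above background for both genotypes, and it was higher in the channel labeled RANK-/-, with ratios of 2.03, 1.15 and 1.76 in pairs 1, 2 and 3. This goes against the label, and whether the probe lies inside the deleted sequence is not given in the sources used here. Every direction below is therefore that of the channel labeled RANK-/-. Across all genes, Pearson correlations of the ratios were -0.28 between pairs 1 and 2, 0.18 between pairs 1 and 3 and -0.08 between pairs 2 and 3, against 0.97 to 0.98 between arrays A and B of a pair. No gene passed the limma test at an adjusted p of 0.05 (0 of 22505, 0%), and 647 (2.87%) had an unadjusted p under 0.05.

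Of the 9 genes, Afap1l1 stood apart by an even excess in the channel labeled RANK-/-, whereas its relative Afap1l2 had ratios of opposite sign in pairs 1 and 3. Afap1l1 and Fyn were higher in all 3 pairs, Yes1 was lower in all 3, and the signs of the other 6 differed between pairs. Thus 3 of the 9 kept their sign, beside 19.6% of all genes, where 9.96% were higher and 9.65% lower in all 3 pairs. The channel levels of the genotypes did not overlap for Afap1l1 and Fyn, both higher in the channel labeled RANK-/-, beside 7.46% of all genes in either direction and 3.69% in this direction. Because the same ratios chose the members, nothing is read from these counts.

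**Figure D1:**
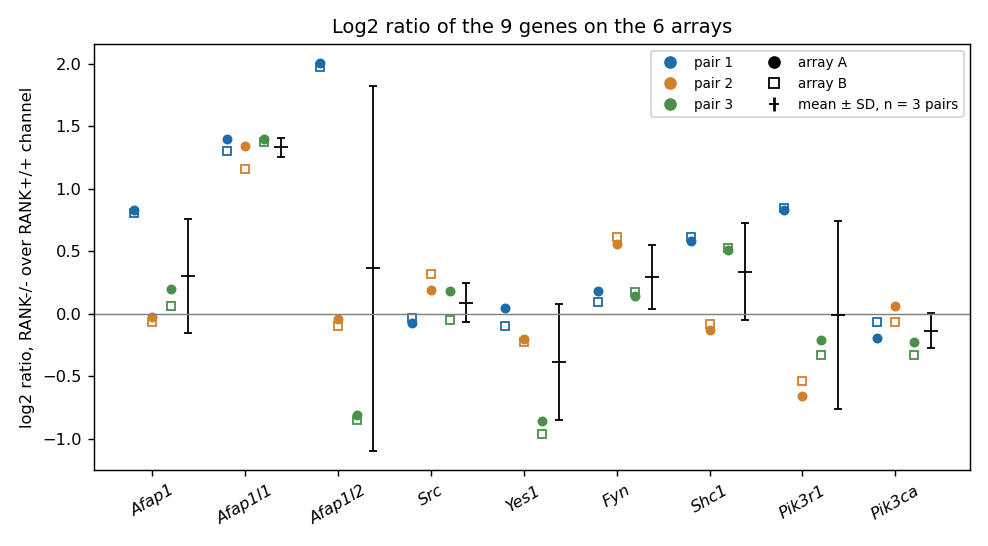
Log2 ratio of the RANK-/- over the RANK+/+ channel for the 9 genes (y axis), with a filled circle for array A and an open square for array B of each pair (color) and a black bar for the mean ± SD over 3 pairs. The 6 arrays of Afap1l1 lie between 1.16 and 1.40, whereas those of Afap1l2 run from -0.85 to 2.00.

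The Afap adaptors differed most from one another. Afap1l1 had ratios of 1.35, 1.25 and 1.39 in pairs 1, 2 and 3, a mean of 1.33 ± 0.07 (SE 0.04), or 2.51-fold with 2.38-fold and 2.62-fold as the lowest and highest pair. All 3 pairs were high and close together. The single arrays of pair 1 gave 1.40 and 1.30, those of pair 2 1.34 and 1.16, and those of pair 3 1.40 and 1.38. The SD between pair values, each a mean of 2 arrays, was 0.86 times the SD between single technical arrays. Averaging lowers technical spread, so this ratio does not show that pairs varied less than technical arrays. The excess was present with either dye, since RANK-/- was in Cy5 in pair 1 and in Cy3 in the other pairs.

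The scanner signals of Afap1l1 show the same order before any normalization. In pair 1 the median spot signal was 2089.5 and 2147 in Cy5, which held RANK-/-, and 621.5 and 603 in Cy3. In pair 2 it was 591 and 669.5 in Cy5, which now held RANK+/+, and 1135 and 1029.5 in Cy3. In pair 3 the Cy5 channel gave 427 and 496.5, and the Cy3 channel 652 and 678. The RANK-/- channel was thus the brighter one on every array, although Cy5 was the brighter dye over all spots (median signal 87 to 105.5, against 48 to 54 in Cy3).

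After normalization, the log2 signal of Afap1l1 was 10.97, 10.33 and 9.77 in the RANK-/- channel of pairs 1, 2 and 3 and 9.62, 9.08 and 8.38 in the RANK+/+ channel. The pairs differed in level by about as much as the genotypes did, with both channels brightest in pair 1, and the lowest RANK-/- value lay just above the highest RANK+/+ value. The difference within the pair therefore carried the evenness, not the level.

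**Figure D2:**
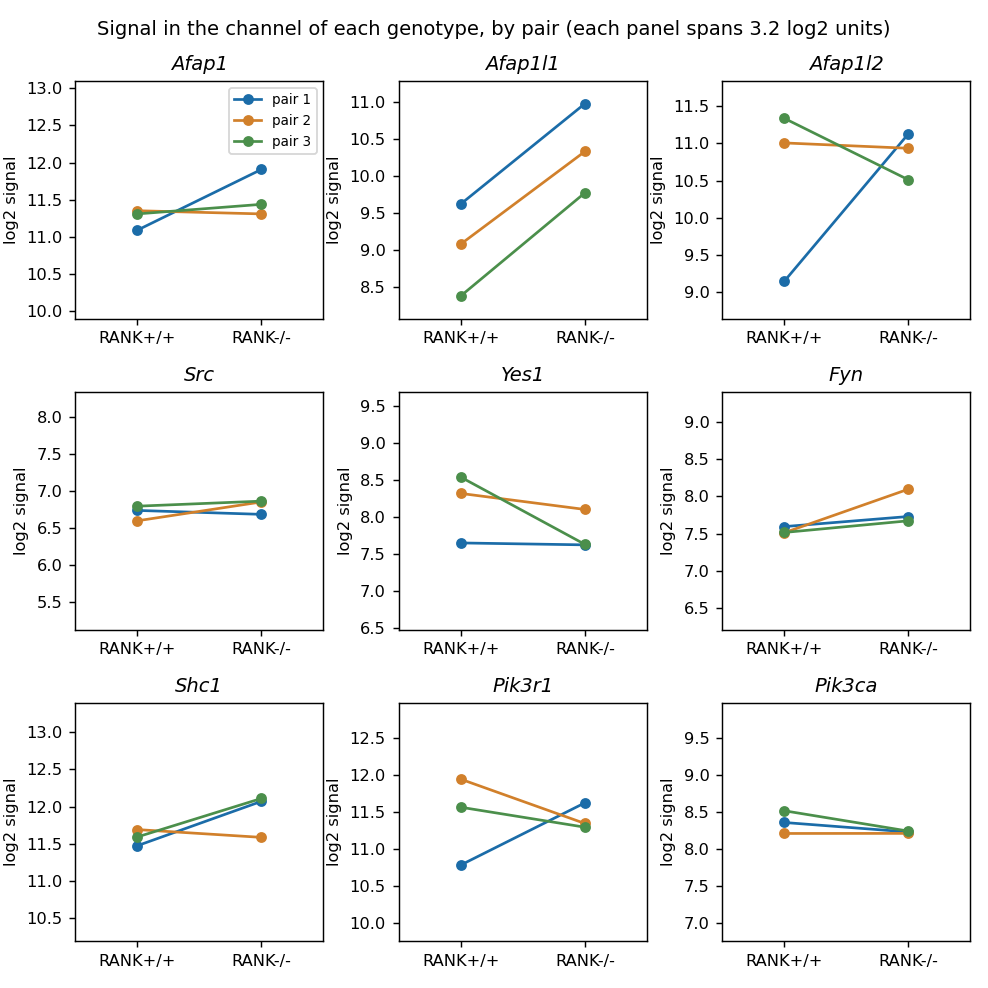
Normalized log2 signal (y axis) of each of the 9 genes in the RANK+/+ and the RANK-/- channel (x axis), with a line for each pair and the same span in every panel. The 3 lines of Afap1l1 are nearly parallel, those of Afap1l2 and Pik3r1 cross, and those of Src and Pik3ca are nearly flat.

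Afap1, the founding member and a Src activator, had ratios of 0.82, -0.04 and 0.13. Its mean of 0.30 ± 0.46 came mostly from pair 1, where the signal was 11.91 in the RANK-/- channel and 11.09 in the RANK+/+ channel, and the genotypes overlapped (11.31 to 11.91 against 11.09 to 11.35).

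Afap1l2, the adaptor that links Src family kinases to p85, had ratios of 1.99, -0.07 and -0.83 (mean 0.36 ± 1.46). It was 3.97-fold higher in the RANK-/- channel of pair 1 and lower in that of pair 3 (0.56-fold), with almost no difference in pair 2. Arrays A and B repeated each value closely, with 2.00 and 1.97 for pair 1, -0.05 and -0.10 for pair 2, and -0.81 and -0.85 for pair 3. The SD between pairs was 50.7 times the SD between single technical arrays and was larger than that of 98.1% of all genes. The RANK+/+ channel carried most of this spread: its signal was 9.14, 11.01 and 11.34 in pairs 1, 2 and 3, while the RANK-/- channel stayed between 10.51 and 11.13. Afap1l1 had no such low RANK+/+ signal in pair 1, where its RANK+/+ signal was the highest of the 3.

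The Src family kinases, whose products bind middle T directly, had smaller mean ratios than Afap1l1. Src had ratios of -0.05, 0.25 and 0.07 (mean 0.09 ± 0.15), and its genotypes overlapped (6.68 to 6.86 against 6.60 to 6.79). Its mean was 0.01 without pair 2 and 0.16 without pair 1. Its probe was dim, with median signals of 93.5 to 155.5 over a background of 63 to 74 in Cy5 and of 59.5 to 99.5 over 30 to 38 in Cy3. The offset of 50 used in background correction pulls ratios of such a probe toward 0. With an offset of 16 the mean was 0.13. It was 0.28 with the processed signals of the scanner software.

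Yes1 had ratios of -0.03, -0.22 and -0.91 (mean -0.38 ± 0.46). It was lower in the RANK-/- channel in all 3 pairs by this average, but pair 1 lay near 0 and its array A was above it (0.05, against -0.10 on array B). Pair 3 held most of the difference, with a signal of 7.63 in the RANK-/- channel and 8.54 in the RANK+/+ channel, and the genotypes overlapped over the pairs.

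Fyn had ratios of 0.14, 0.59 and 0.16 (mean 0.29 ± 0.25), above 0 on all 6 arrays (0.09 to 0.61). Its signal was 7.73, 8.10 and 7.67 in the RANK-/- channel and 7.59, 7.51 and 7.51 in the RANK+/+ channel, so that the RANK-/- channel of pair 2 stood above the rest and the other values lay close together. With median centring of each array in place of loess, the lowest pair of Fyn was -0.20 and the highest pair of Yes1 was 0.09, so neither kept 1 sign in all pairs in that setting. Without pair 2 the mean of Fyn was 0.15. Src, Yes1 and Fyn thus shared no direction: at pair 1 all 3 lay within 0.14 of 0, at pair 2 Fyn was highest, and at pair 3 Yes1 was lowest.

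Shc1, the adaptor that couples middle T to Grb2 and Ras, had ratios of 0.60, -0.10 and 0.52 (mean 0.34 ± 0.39). The SD between pairs was 14.7 times that between single technical arrays. Its signal was 11.59 to 12.11 for RANK-/- and 11.47 to 11.69 for RANK+/+, and pair 2 was the one pair in which RANK+/+ was the higher. Without pair 2, the mean was 0.56.

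Pik3r1, the p85 subunit through which PI3K docks on phosphorylated tyrosines, had ratios of 0.84, -0.60 and -0.27, which averaged to -0.01 ± 0.75. The mean near 0 was the sum of opposite values and not of small ones, since pair 1 was 1.79-fold higher in the RANK-/- channel and pair 2 was 0.66-fold. As with Afap1l2, the signal of the RANK+/+ channel varied more (10.79, 11.94 and 11.57) than the RANK-/- channel (11.63, 11.35 and 11.30), and the signal of RANK+/+ was lowest in pair 1. Both genes were higher in the RANK-/- channel of pair 1 and lower in that of pairs 2 and 3. Over all genes, pair 1 was opposite in sign to the other pairs in 28.8%, pair 2 in 35.8% and pair 3 in 15.8%. Without pair 1 the mean of Pik3r1 was -0.43, and without pair 2 it was 0.28. Pair 1 was the only one with RANK-/- in Cy5, so for Afap1l2 and Pik3r1 the dye arrangement and the pair cannot be told apart.

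Pik3ca, the p110 alpha catalytic subunit, had ratios of -0.13, 0.00 and -0.27 (mean -0.13 ± 0.14). The mean was -0.06 without pair 3 and -0.20 without pair 2. Its signal was 8.21 to 8.24 in the RANK-/- channel and 8.21 to 8.51 in the RANK+/+ channel. The regulatory subunit thus had large opposite differences where the catalytic subunit had small ones, within the same RNAs.

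By pair, the median size of the 9 ratios, in either direction, was largest in pair 1. It was 0.60 there, against 0.22 in pair 2 and 0.27 in pair 3 (0.25, 0.21 and 0.27 for all genes). Single genes differed: Src and Fyn were largest in size in pair 2, and Afap1l1, Yes1 and Pik3ca in pair 3. In pair 1, 6 of 9 were above 0 and 5 of 9 differed at least 1.5-fold in either direction. Of all genes, 52% were above 0 in that pair and 20% differed that much. In pair 2 the counts were 4 and 3 of 9, beside 48.3% and 15.3%, and in pair 3 they were 5 and 3 of 9, beside 50.2% and 21.9%. The medians of the 9 genes were 0.60, -0.04 and 0.07 in pairs 1, 2 and 3, and the median of their means was 0.29, against 0.00 for all genes. Afap1l1 was the one gene of the 9 at least 1.5-fold higher in every pair.

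Set against all genes, Afap1l1 joined a high mean to a small spread. Its mean was above that of 99.8% of genes, and larger in size than that of 99.6% when the direction is left aside. Its SD of 0.07 compares with a median SD of 0.33 between pairs and of 0.06 between single technical arrays over all genes. A mean of its size or larger in either direction was found for 90 genes, 50 of them higher, itself included, and 40 lower, and among these 90 Afap1l1 alone had an SD that small. At least 2-fold higher in all 3 pairs were 9 genes (0.04%), Afap1l1 among them. Lower by 1.25 or more in all pairs were 5 genes, and 3 transcripts reached its lowest pair value of 1.25 in every pair: Afap1l1, Slc2a6, a sugar transporter of the GLUT family (1.71, 1.56 and 2.55), and the unnamed transcript of probe A_55_P2151956 (3.72, 2.05 and 2.30). Since Afap1l1 was picked for this evenness, these ranks say only how it was picked.

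**Figure D3:**
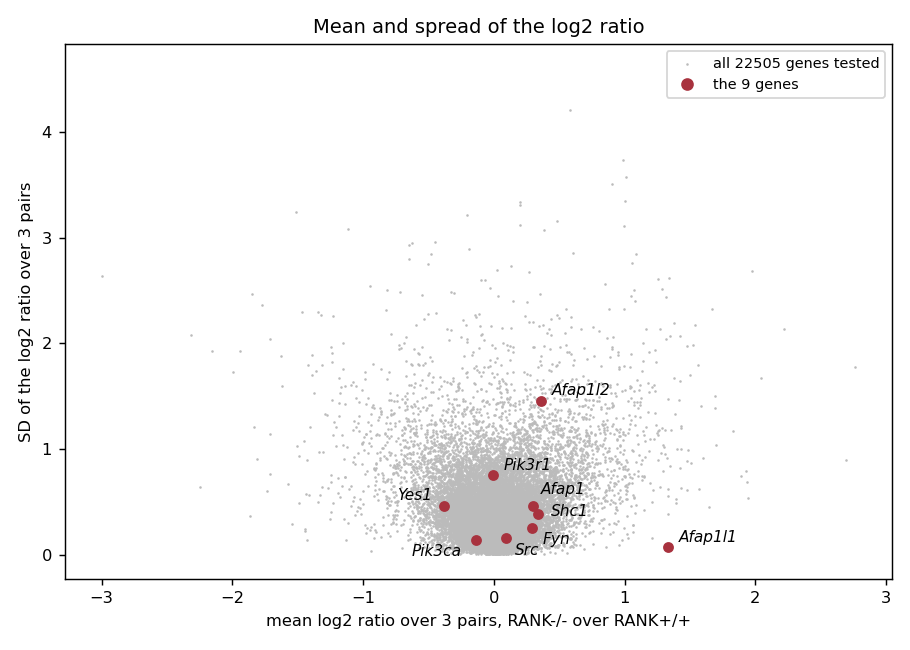
Mean log2 ratio over 3 pairs (x axis) against its SD over the pairs (y axis) for all 22505 genes (gray) and the 9 genes (red, named). Afap1l1 lies at 1.33 with an SD of 0.07, and Afap1l2 at 0.36 with an SD of 1.46.

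Among genes with a RefSeq symbol, those whose 3 pair ratios lay nearest to those of Afap1l1, by Euclidean distance, were Cxcl1 (distance 0.39), H2-Eb1 (0.56), Nr4a3 (0.57), Tgfbr3 (0.59) and Vmn1r65 (0.61). Cxcl1, a chemokine that draws neutrophils, had ratios of 1.15, 1.39 and 1.09. H2-Eb1, a chain of MHC class II, had 0.91, 1.43 and 1.66. Nr4a3, an orphan nuclear receptor induced early after stimulation, had 0.89, 0.92 and 1.40, and Tgfbr3, the TGF-beta coreceptor betaglycan, had 1.22, 0.69 and 1.53. Vmn1r65, an olfactory type receptor of the vomeronasal family, had 0.86, 1.29 and 1.04. None of the 8 other genes of the set was among them. With 3 values per gene, such a likeness says only that all were similarly higher in each pair.

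Among 89 further genes of the same pathways, 0 passed the adjusted limma threshold and 4 had an unadjusted p under 0.05, where 2.87% of all genes did. Without pair 2 this unadjusted count was 11 of 89, and that over all genes was 1880 in place of 647. Of the other Src family kinases and their regulators, 2 of 11 were higher in all pairs and 0 lower, with a median mean ratio of 0.01. Both were phosphatases: Ptpn1, which can remove the inhibitory phosphate of Src, had 0.91, 0.50 and 0.76 (mean 0.72 ± 0.21), and Ptpra, which does the same, had a mean of 0.25 ± 0.11. Fgr, Blk and Pag1 were not above background often enough to be tested.

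Of the other partners of middle T, 4 of 18 were higher in all pairs and 1 lower (median 0.09). They included Ppp2r1b, a scaffold subunit of protein phosphatase 2A, at 0.24 ± 0.11, and the 14-3-3 genes Ywhag at 0.20 ± 0.11 and Ywhaq at -0.24 ± 0.16. In this group Shc3 was not tested. Of the other PI3K and Akt genes, 4 of 20 were higher and 1 lower (median 0.12), and Inpp4b was not tested. Irs2, an insulin receptor substrate that recruits p85, had 1.26, 0.62 and 0.98 (mean 0.95 ± 0.32), and Pik3r3, the p55 gamma regulatory subunit, had -0.76, -0.15 and -0.24 (mean -0.38 ± 0.33). Pik3r3 thus kept its sign where Pik3r1 did not.

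Of the Src substrates and adhesion adaptors, 1 of 16 was higher throughout and 2 were lower (median 0.01). Stat3, a transcription factor that Src can phosphorylate, had 0.95, 0.35 and 1.23 (mean 0.84 ± 0.45), and the lower ones were the kinase Ptk2b (-0.43 ± 0.32) and the adhesion adaptor Pxn (-0.24 ± 0.34). Of the actin crosslinkers and podosome or filopodium genes, 2 of 24 were higher and 3 lower. Gsn, which severs actin filaments, had 0.42, 0.91 and 1.75 (mean 1.03 ± 0.67), and Arpc2, of the Arp2/3 complex, had 0.28 ± 0.08. The lower ones included the podosome scaffold Sh3pxd2b (-0.60 ± 0.54) and Ezr, which ties actin to the membrane (-0.27 ± 0.27). The median of the actin list was 0.36, -0.04 and -0.18 in pairs 1, 2 and 3. These counts are read beside the 9.96% of all genes that were higher and the 9.65% that were lower, and each rests on 11 to 24 genes.

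**Figure D4:**
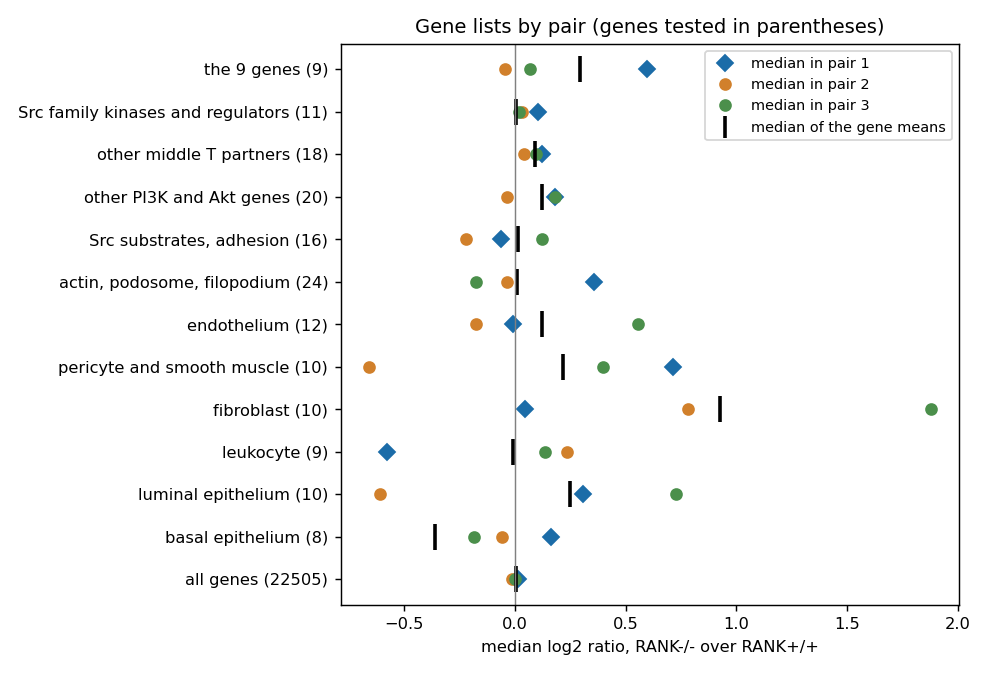
Median log2 ratio (x axis) of the 9 genes, of 5 pathway lists, of 6 cell type marker lists and of all genes (y axis, genes tested in parentheses), with a point for each pair and a black bar for the median of the gene means. The fibroblast markers run from 0.05 in pair 1 to 1.88 in pair 3, and all genes lie near 0 in each pair.

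Markers of the cells a CD45- gate can hold also differed between the pairs and are given beside the members. Fibroblast markers had medians of 0.05, 0.78 and 1.88 in pairs 1, 2 and 3 (3 of 10 higher in all pairs), with summed signals of 152200 to 244400 in the RANK-/- channel and 57550 to 155800 in the RANK+/+ channel. Afap1l2 ran the other way over the pairs (1.99, -0.07 and -0.83), and Afap1l1 held near 1.33 in all of them. Basal epithelial markers had medians of 0.16, -0.06 and -0.18 (1 of 8 higher and 0 lower in all pairs, median mean -0.36), with sums of 53740 to 58330 in the RANK-/- channel and 80500 to 86960 in the RANK+/+ channel. Luminal markers had medians of 0.31, -0.61 and 0.73 (0 of 10 higher in all pairs), with sums of 169600 to 477900 and 199800 to 307600. Epcam and Krt18, which define epithelium, were well above background on all 6 arrays in both channels, and Krt8 on 5 arrays in each.

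Markers of vessels followed other orders. Endothelial markers had medians of -0.01, -0.18 and 0.56 (1 of 12 higher in all pairs), with sums of 6046 to 7512 in the RANK-/- channel and 5318 to 7704 in the RANK+/+ channel. Pericyte and smooth muscle markers had 0.72, -0.66 and 0.40 (0 of 10), with sums of 15470 to 26890 and 9003 to 22960. Afap1 (0.82, -0.04 and 0.13), Shc1 (0.60, -0.10 and 0.52) and Pik3r1 (0.84, -0.60 and -0.27) were highest in pair 1 and lowest in pair 2. The pericyte medians had this order too, but Pik3r1 was below 0 in pair 3, where they were above it. The order was not particular to pericyte genes. Epcam of the luminal list (1.04, -0.67 and 0.52) and Mylk of the basal list (0.95, -0.66 and 0.21) had it, although the medians of those lists did not. The share of all genes with this order was not counted, and the 35.8% with pair 2 opposite in sign is another quantity. Leukocyte markers had medians of -0.58, 0.24 and 0.14 (1 of 9), with sums of 7383 to 10120 and 7134 to 9343. Lyz2, Itgam, Csf1r, Cd3e, Fcer1g and Tyrobp, 6 of the 10 listed leukocyte genes, were well above background on all 6 arrays for both genotypes, although the gate was CD45-. Ptprc, which encodes CD45, was above it on 5 arrays in the RANK-/- channel and on 4 in the RANK+/+ channel, and the B cell gene Cd79a on 0. The part of these cell types in the ratios of the 9 genes was not tested.

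Promoter windows from RefSeq (GRCm38.p6, 250 bases before to 50 after a transcript start) were found for 8 of the 9 genes, 10 windows in all, with Afap1l1 not among them. As RANK signals through NF-kB, the windows were searched on both strands for the kB consensus. It was found in 3 of 10, those of Src, Yes1 and Pik3r1, beside 8.46% of all 32851 promoters. These 3 windows were the richest in G and C (82.3, 77.0 and 75.7%, against 43.7 to 69.0% for the rest). The fixed letters of the consensus are G and C, and the 8.46% was not matched for this content. The AP-1 site TGANTCA was found in 2 of 10, those of Pik3ca and Shc1 (7.81% of all), and the CArG box of serum response factor in 0 of 10 (1.63% of all). These are matches of letters and not shown sites, and the 3 genes with a kB match had mean ratios of 0.09, -0.38 and -0.01. The match of Pik3r1 lay upstream of the annotated gene, at positions -208 to -199 from the start, and is shown as the one outside transcribed sequence, on the minus strand at chr13:101768391-101768450, with the match in capitals.
Pik3r1: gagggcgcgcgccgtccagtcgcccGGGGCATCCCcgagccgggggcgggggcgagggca

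Over the 17 alternative settings tried, the mean ratio of Afap1l1 ran from 1.15 to 1.43, and no setting turned its sign. Median centring in place of loess gave the lowest value, with pairs between 0.87 and 1.57 and an SD of 0.37. The SD of 0.07 therefore belongs to the processing used here. Replacing loess raised this SD most, and the other settings changed it less. It was 0.11 with an offset of 16, with processed signals, with the authors' normalized ratios and on array B alone. With offset 0 the SD was 0.12. It was smaller on array A alone (0.03) and without pair 2 (0.03). The mean of Afap1l2 ran from -0.45, without pair 1, to 0.96, without pair 3. Without pair 1 the mean of Afap1 was 0.04, and without pair 3 that of Yes1 was -0.12, so that 1 pair decided the size of each of these 3 means.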

How the data were processed

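RNA of sorted CD45- cells was compared on 6 SurePrint G3 Mouse 2-color arrays (3 pairs, arrays A and B of each, all on 1 slide). Groups, pairs and dyes came from the sample labels. Both arrays of a pair had 1 dye arrangement per the labels, although the methods describe dye swaps. Spots were extracted by the authors in Feature Extraction (version 10.7.3.1). Their deposited files hold median intensity and background intensity per channel, processed intensity values, and a log10 ratio of Cy5 over Cy3. The deposited series table holds the authors' normalized log2 ratios, which ran as RANK-/- over RANK+/+ when set against the scanner values. The last 2 kinds served as alternatives or as checks. The plan named mean spot signals, for which median signals stood in.

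Signals were corrected by normexp (offset 50) in limma 3.58.1 (R 4.3.3, data.table version 1.17.8), then normalized by loess within arrays and Aquantile between them. Control spots (3671 of 62976) and 212 to 260 outlier spots per array were left out, and 0 were saturated. Kept were 30230 of 55681 probes, those well above background on both arrays of 2 or more pairs in a genotype's channel, with the brightest probe standing for a gene. Symbols came from RefSeq (GRCm38.p6) by accession, for 28026 probes. The array design names the mm9 build, so no probe coordinates are given, and the coordinates of the promoter window shown are those of the RefSeq table. All 9 members had 1 probe each, well above background on all arrays.

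The whole table was fitted with limma (intercept only, two-sided, Benjamini-Hochberg, threshold 0.05) on 3 pair ratios. The fit was also run on simulated ratios with a much smaller spread than the data and large added changes. That run checked the code and cannot show what the fit would find at the real spread. P-values measure only the spread of these samples. An exact sign-flip test with 3 pairs cannot go below 0.25. The number of arrays limits the precision. Members and lists were chosen with earlier results of these data known. The rule named all members, Tnfrsf11a, in each pathway list the 2 highest and 2 lowest genes with 1 sign in all pairs, the 5 genes nearest to Afap1l1, and defining markers; 1 gene that the rule names is not reported here. Alternatives changed background correction, normalization, signal source, filter, probe rule, arrays, dye term, block and pairs used.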

Additional observations from a re-analysis of the deposited data

Results flagged for a closer look

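For 2 genes, the pair with RANK-/- in Cy5 and both pairs with RANK+/+ in Cy5 moved in opposite directions. For Afap1l2, the ratio of pair 1 minus the mean of pairs 2 and 3 was 2.44 on the log2 scale. For Pik3r1 it was 1.27. The difference was not tested, since pair 1 is the only one of its dye arrangement, and dye and pair cannot be told apart. Opposite signs of this kind were found in 28.8% of all genes.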

How the results depend on the processing

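Of 17 alternatives and 1 chosen after seeing the data (normexp offset 0), the random block for the pair over 6 arrays alone called any gene (13, consensus correlation within pairs 0.96); the others called 0, and 0 of the 89 pathway genes was called in any. With no replicate block (channels as 3 and 3 samples) 0 genes were called and Afap1l1 kept 1.33. Pair numbers mark shared arrays, and the labels do not say what else the RNAs of a pair shared. Over all genes, deviations of both channels from their means over the pairs correlated at -0.03, -0.22 and -0.04. These values rest on normalized levels of 3 pairs and cannot settle it. Afap1l1 was 1.15 with median centring, 1.43 with processed signals and 1.43 with offset 0. Pik3ca was -0.30 with median centring and Src 0.28 with processed signals. Without 1 pair, 0 genes were called (lowest 0, highest 0), and Afap1l1 was 1.30 to 1.37. The mean of Pik3r1 crossed 0 in 5 settings, reaching 0.28 without pair 2, and that of Afap1l2 in 1. Unadjusted p under 0.05 was reached by 461 genes without pair 3, 1880 without pair 2, 1367 with the random block and 1206 with no filter, against 647. The cause was not tested. Signal near background limits the ratios of Src. Fyn and Yes1 were also fairly dim, and their means were 0.46 and -0.45 with processed signals, against 0.29 and -0.38.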
